A study of Mus musculus with 2 samples.

Results

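The nuclei described here were picked from all cell types of the mouse kidney because they carried RNA of dividing cells. A nucleus was counted when it had at least 1000 unique molecular identifiers (UMIs, 1 for each captured RNA molecule), at most 10% of them mitochondrial, and UMIs of at least 2 of 10 genes of cell division: Top2a, Mki67, Cenpf, Kif11, Aspm, Knl1, Cenpe, Anln, Kif15 and Diaph3. This gave 120 nuclei out of 5563 that passed the filters and 6383 barcodes in all. They were 51 of 2655 nuclei in the sham library and 69 of 2908 in the nephrectomy library. The 10 genes chose the nuclei, so their levels are given as a description only.

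The study sequenced RNA of single nuclei from frozen kidney (10x Genomics Chromium) and compared male T1+/+ mice after 5/6 nephrectomy with sham-operated mice. Surgery was done at 11 weeks of age. In the nephrectomy group the right kidney was taken out, the poles of the left one were tied off a week later, and the remnant was collected 4 weeks after surgery. Sham mice of the same sex, genotype and age had both flanks opened, the kidney exposed and the wounds closed. The series concerns Csgalnact1 and versican in scarring of the remnant kidney. Each group was 1 library, and the number of mice behind it is not given in the sources used here. There is therefore no replicate check and no p-value, and every interval is a 95% interval that covers counting error only.

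Most cells of the adult kidney rest outside the cell cycle, and tubule cells re-enter it after injury or loss of tissue. DNA is copied in S phase with the help of the MCM helicase, DNA polymerases and enzymes that supply nucleotides, whose genes are switched on by E2F factors. Genes of the spindle, the kinetochore (the protein plate that ties a chromosome to the spindle) and cytokinesis follow in G2 and mitosis, and their promoters typically carry CCAAT boxes and cell cycle genes homology regions bound by NF-Y and the DREAM and MuvB complexes.

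The nephrectomy library was the deeper one, with 28284727 UMIs against 21365116 and a median of 7837.5 against 6228 UMIs per nucleus that passed. The filters left out 429 sham and 391 nephrectomy barcodes, among them 2 sham and 1 nephrectomy barcode that had 2 of the cycle genes. The libraries shared 2 cell barcodes, 0 of them among the 120 nuclei. Clustering without the cycle genes gave 23 clusters, of which 19 took a class name from kidney markers and 4 did not.

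The 120 nuclei were of unequal strength. Exactly 2 of the 10 genes were detected in 33 sham and 45 nephrectomy nuclei, 3 or 4 genes in 6 and 10 nuclei, and 5 or more in 12 and 14 nuclei. All 10 genes were found in 3 sham and 6 nephrectomy nuclei. Nuclei with 2 genes thus made up most of the group, and the numbers fell to single figures from 3 genes onwards.

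**Figure D1:**
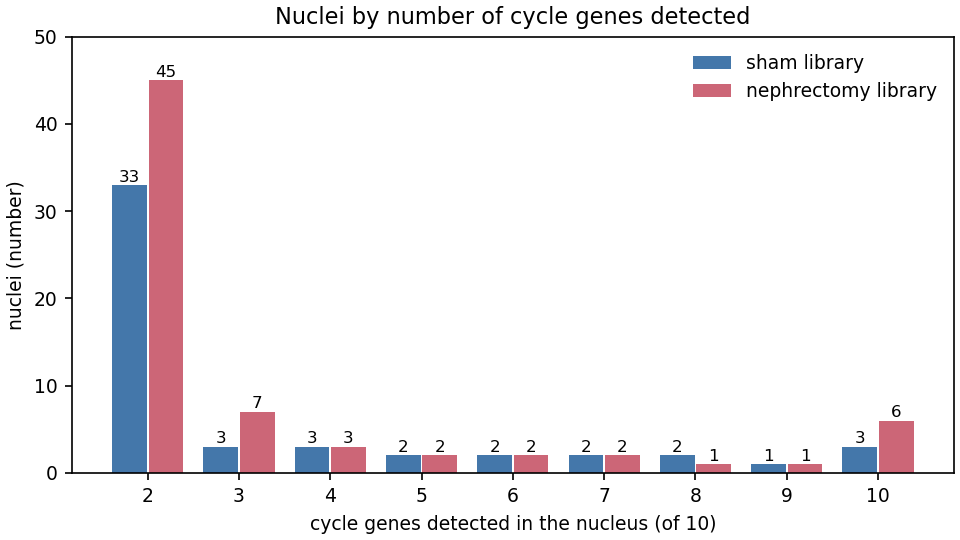
Number of nuclei (vertical axis) by how many of the 10 cycle genes had at least 1 UMI (horizontal axis, from 2 to 10), with 1 bar for each library. The 2-gene bars hold 33 sham and 45 nephrectomy nuclei, and a second, lower group of 3 and 6 nuclei had all 10 genes.

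Just inside the limit, a 2-gene nucleus held a median of 2 UMIs of the 10 genes in either library, and 25 of the 33 sham and 28 of the 45 nephrectomy 2-gene nuclei had 1 UMI of each gene. Just outside it, 296 sham and 407 nephrectomy nuclei had 1 of the genes, and 2308 and 2432 had 0. Nuclei with 5 or more genes held a median of 23 UMIs of the 10 genes in sham (6 to 104) and 28.5 in nephrectomy (5 to 174). The label of cycling nuclei was checked against lists of 51 other S phase and 77 other mitosis genes. As a group, the 26 nuclei with 5 or more genes carried these genes at 12.4 and 19.6 times the level of matched nuclei with none of the 10, although 1 sham proximal tubule-like nucleus had only 4.72 S phase and 9.44 mitosis UMIs per 10000. The 2-gene nuclei stood at 1.21 and 1.14 times the level of their own matched nuclei, so they are called by their gene number here. The class of 5 or more genes was chosen after the data were seen.

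Among the genes of the rule, Top2a encodes topoisomerase II alpha, which untangles copied DNA. It had UMIs in 25 sham nuclei, of which 21 were among the 51, and in 39 nephrectomy nuclei, of which 25 were among the 69. Mki67, whose protein coats mitotic chromosomes and is the usual stain for proliferation, was far less selective. It was found in 161 sham nuclei, of which 31 were among the 51, and in 144 nephrectomy nuclei, of which 38 were among the 69. Outside the chosen nuclei, Mki67 had a UMI in 70 of 917 proximal tubule-like nuclei of the sham library (7.63%) and in 45 of 1034 of the nephrectomy library (4.35%), at median depths of 9842 and 10942 UMIs. In podocyte-like nuclei, which normally do not divide, it was 0 of 50 and 0 of 79 at median depths of 5796.5 and 6829 UMIs, which allows shares of up to 6% and 3.80% by the rule of 3 counts, and of 7.11% and 4.56% by the exact interval. Of the 78 2-gene nuclei, 18 of 33 sham and 19 of 45 nephrectomy nuclei owed 1 of their 2 genes to Mki67, and the most frequent pair was Mki67 with Cenpe, in 4 nuclei of each library.

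The other rule genes are the kinetochore genes Knl1, Cenpf and Cenpe, the spindle motors Kif11 and Kif15, the spindle pole gene Aspm, and Anln and Diaph3, which organise actin at the cleavage furrow. Anln was the gene most unequal between the libraries outside the chosen nuclei, where it was detected in 18 of 2604 nuclei for sham and 76 of 2839 for nephrectomy. The 26 nuclei with 5 or more genes held 193 UMIs of Top2a, found in 26 of 26, and 235 of Diaph3, found in 21. They held 163 UMIs of Knl1 in 21 nuclei, 135 of Mki67 in 22, 133 of Kif15 in 20 and 118 of Kif11 in 21. The lowest totals were 96 UMIs of Cenpf in 19 nuclei, 89 of Anln in 22, 57 of Cenpe in 16 and 49 of Aspm in 16. Top2a was thus the only one of the 10 found in every one of these nuclei.

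Top2a, Mki67 and Kif11 are shown with the 150 bases before their RefSeq start on GRCm38.p6, since they carry both promoter elements named above. Top2a lies at chr11:98992943-99024189 on the minus strand, Mki67 at chr7:135689784-135716361 on the minus strand, and Kif11 at chr19:37376403-37421859 on the plus strand. The printed windows are chr11:99024190-99024339 (minus), chr7:135716380-135716529 (minus) and chr19:37376232-37376381 (plus), each read 5′ to 3′ on the gene's strand. Capitals mark the letters TTTGAA or TTCGAA of the cell cycle genes homology region and CCAAT of the CCAAT box on either strand, so that TTCAAA and ATTGG are the reversed forms.
Top2a: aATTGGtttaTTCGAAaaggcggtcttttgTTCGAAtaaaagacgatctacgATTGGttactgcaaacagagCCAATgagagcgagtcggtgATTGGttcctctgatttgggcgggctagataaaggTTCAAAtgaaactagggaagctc
Mki67: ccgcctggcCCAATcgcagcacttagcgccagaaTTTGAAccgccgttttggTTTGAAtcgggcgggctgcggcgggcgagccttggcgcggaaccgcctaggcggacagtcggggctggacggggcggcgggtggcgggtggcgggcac
Kif11: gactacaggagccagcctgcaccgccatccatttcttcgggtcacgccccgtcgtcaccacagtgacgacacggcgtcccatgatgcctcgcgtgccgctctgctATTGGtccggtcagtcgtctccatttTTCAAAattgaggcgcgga
The homology region letters closest to the start began 23 bases before it in Top2a, 98 in Mki67 and 19 in Kif11. Within 250 bases, the homology region letters occurred in 4 of the 10 rule genes (also in Kif15) and in 17.1% of 32851 promoters of the same length. CCAAT occurred in 7 of the 10 and in 33.8% of the promoters, both elements in 3 of the 10 and in 6.02%, and an E2F site (TTTCCCGC or TTTGGCGC) in 1 of the 10, Kif15, and in 1.30%. These are matches of letters, not measured binding.

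Detection of 2 genes moved with depth. The median depth was 5628 UMIs in sham and 7080.5 in nephrectomy nuclei with 0 of the genes, 9952 and 11480 with 1 gene, and 14862 and 15093 with 2 genes. The 2-gene nuclei lay above the median depth of their own class and library in 57 of 78 cases, and those with 5 or more genes in 20 of 26. In the shallowest of 3 depth classes 1 of 984 sham and 2 of 871 nephrectomy nuclei had exactly 2 genes, and in the deepest 23 of 726 and 34 of 1128 did. When every nucleus was thinned to 1000 UMIs, 1 of the 33 sham and 0 of the 45 nephrectomy 2-gene nuclei still had 2 genes, against 8 of 12 and 6 of 14 nuclei with 5 or more.

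The share of nuclei with 2 or more genes was 1.92% in sham (1.43 to 2.52) and 2.37% in nephrectomy (1.85 to 2.99). The difference of 0.452 percentage points had an interval of -0.322 to 1.22, so it was not detectable at this depth. For 5 or more genes the shares were 0.452% (0.234 to 0.788) and 0.481% (0.263 to 0.806), with a difference of 0.0295 points (-0.359 to 0.408). The order of the libraries turned with equal depth: thinned to 1000 UMIs, 10 sham (0.377%) and 6 nephrectomy nuclei (0.206%) had 2 genes, and thinned to 3000 UMIs, 19 of 2025 (0.938%) and 17 of 2363 (0.719%) did. That last comparison left out 630 sham and 545 nephrectomy nuclei as too shallow. At each of these settings the intervals of the sham and the remnant kidney overlapped.

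By cluster, proximal tubule-like nuclei were the main class. They made up 28 of the 51 sham nuclei (54.9%, 40.3 to 68.9) and 33 of the 69 nephrectomy nuclei (47.8%, 35.6 to 60.2), although 35.6% and 36.7% of all nuclei were of this class. Within the class, 2.96% of sham and 3.09% of nephrectomy nuclei had 2 or more genes. Proximal tubule-like nuclei were also deep, with medians of 10024 and 11047 UMIs, and the part of depth in their higher share was not tested. Chosen nuclei of the classes from the thick ascending limb to the collecting duct were 11 of 796 (1.38%, 0.692 to 2.46) in sham and 21 of 913 (2.30%, 1.43 to 3.49) in nephrectomy.

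The 26 nuclei with 5 or more genes were spread over several types. In sham, 7 of 12 were proximal tubule-like, and 1 each was principal cell-like (the water and sodium transporting cell of the collecting duct), blood endothelial-like and fibroblast-like, with 1 each in the unnamed clusters 0 and 17. In nephrectomy, 5 of 14 were proximal tubule-like, 3 connecting tubule-like, 2 distal convoluted tubule-like, 1 thick ascending limb-like and 1 thin limb-like, and 1 each was in the unnamed clusters 0 and 17. The distal convoluted and connecting tubule-like classes together held 0 of 264 sham nuclei, which allows up to 1.14%, and 5 of 376 nephrectomy nuclei (1.33%, 0.433 to 3.08). The exact interval of the sham share reaches 1.39%, so the intervals overlap. Podocyte-like nuclei gave 0 of 50 and 0 of 79 even with 2 genes, blood endothelial-like nuclei 1 of 240 and 0 of 258, and fibroblast-like nuclei 1 of 75 and 0 of 84.

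**Figure D2:**
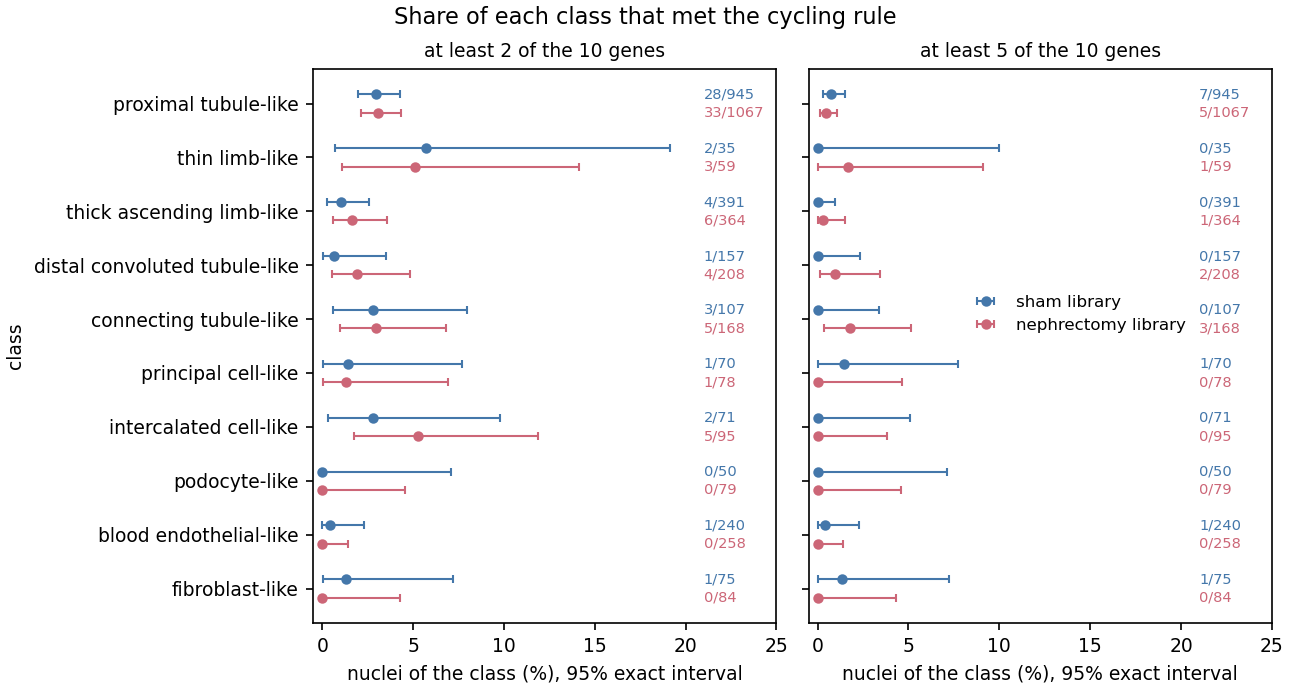
Share of each class (percent of its nuclei, horizontal axis) with at least 2 (left) and at least 5 (right) of the 10 genes in the sham and nephrectomy libraries, with exact 95% intervals that cover counting error only, and the counts at the right. Proximal tubule-like shares of 28 of 945 and 33 of 1067 nearly coincide, and for 5 or more genes all 5 nuclei of the distal convoluted and connecting tubule come from the nephrectomy library.

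Several of these nuclei carried markers of more than 1 cell type. The principal cell-like nucleus held 27 UMIs of 1 proximal tubule S3 marker beside 24 of 6 markers of its own. The level of this 1 gene in matched nuclei is not given here, and 1 gene alone does not show a second cell type. The fibroblast-like nucleus held 12 UMIs of 3 T or NK lymphocyte markers beside 21 of 4 of its own markers, and the smaller of the distal convoluted tubule-like nuclei 87 of connecting tubule markers beside 44 of its own. In 2 of these 3 the second list held more UMIs than the markers of the class. The 51290-UMI nephrectomy nucleus of the distal convoluted tubule-like class carried 472 UMIs of proximal tubule markers beside 277 of its own and 209 of connecting tubule markers, and the nuclei it was compared with reached only 27271 UMIs. Connecting tubule was the second-ranked class of the whole distal convoluted tubule-like cluster, and the level of its markers in matched nuclei is not given here. The sham nucleus of cluster 17 (28759 UMIs) held 305 UMIs of proximal tubule, 184 of thick ascending limb and 121 of distal convoluted tubule markers. Proximal tubule markers were raised in cluster 17 as a whole (8 markers), so these are not particular to it. Per 10000 UMIs it had Slc34a1 at 18.1 against a matched median of 31.8, Slc5a12 at 16.7 against 16.7 and Slc4a4 at 45.2 against 21.8. The matched levels of its thick ascending limb and distal convoluted tubule markers are not given here. The thin limb-like nucleus had 3 UMIs of thin limb markers and 6 each of connecting tubule and T or NK lymphocyte markers. The nephrectomy nucleus of cluster 17 had 21 UMIs of 5 T or NK lymphocyte markers and 5 of proximal tubule markers. None of the 26 was among the highest 3% of doublet scores of its library, which included 6 of the 78 2-gene nuclei. The doublet caller itself marked 1 barcode of all and is taken not to have worked, and no nucleus was removed.

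To see what else differed, each chosen nucleus was set beside 5 nuclei of its own library and class that had none of the 10 genes and lay nearest in depth. The 26 nuclei with 5 or more genes had a median of 16132.5 UMIs and their 130 matched nuclei 14858. UMIs were summed over each side and given per 1000000 (CPM), a gene was measured with at least 20 UMIs over both sides after scaling to depth, and it was counted as higher or lower at 2-fold or more, leaving out the rule genes. Of 6835 genes, 601 (8.79%) were higher and 190 (2.78%) lower. The sham nuclei alone gave 340 (10.2%) and 204 (6.14%) of 3320 genes, the nephrectomy nuclei 465 (9.03%) and 165 (3.2%) of 5152, and the proximal tubule-like nuclei of both 350 (8.6%) and 163 (4%) of 4071. With TMM scaling, which lowers every ratio to 0.903 of its value here, the 601 and 190 became 490 and 319, and with equal weight for each nucleus 693 and 368.

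Genes of S phase were higher throughout. All 29 of the 51 listed genes that had enough UMIs were at least 2-fold higher, against 8.79% of all measured genes. Their median log2 ratio was 4.15 against 0.08 over all genes. In the nuclei with 5 or more genes the list summed to 4763 CPM for sham and 4706 CPM for nephrectomy, and to 361 and 391 CPM in their matched nuclei, so that both libraries stood well above their matched nuclei. Over both libraries the ratio was 12.4 (11.4 to 13.6). Because a gene reached the minimum mainly through the nuclei where it is high, the count over measured genes is no support on its own. The list was drawn from general knowledge of this phase, with earlier results of these data known. The 2 measured genes at 0 in the matched nuclei enter the median at the floor of 3 counts.

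Among the S phase genes, Pola1, the catalytic subunit of DNA polymerase alpha, had 93 UMIs in the sham and 140 in the nephrectomy nuclei and 81 in all matched nuclei (13.2-fold, 10.2 to 17.3). Ezh2, the histone H3K27 methyltransferase, had 62 and 154 UMIs against 61 (16.3-fold). Atad2, a chromatin ATPase regulated by E2F, had 79 and 134 UMIs against 12 (81.7-fold, 45.8 to 161). These abundant genes were each found in at least 20 of the 26 nuclei. Rrm2, the ribonucleotide reductase subunit made in S phase, had 18 and 42 UMIs against 2, and 30 of the 60 lay in 1 nucleus. Brca1, which acts in repair at stalled forks, had 23 and 56 UMIs against 3, and Dtl, which recruits substrates for degradation at the fork, 16 and 37 against 0, at least 81.3-fold higher. Smaller ratios were those of Dna2, a nuclease of the replication fork (3.73-fold), and Tyms, thymidylate synthase (3.86-fold), which had UMIs in 34 and 25 of the 130 matched nuclei.

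Genes of mitosis were higher still. All 54 measured genes of the 77 listed were at least 2-fold higher, against 8.79% of all measured genes. Their median log2 ratio was 5.80 (12 of them at the floor in the matched nuclei). The nuclei were chosen largely by genes of the same phase, and a gene reached the minimum mainly through them. This count is therefore no support on its own. The list summed to 7863 CPM in sham and 7108 CPM in nephrectomy nuclei with 5 or more genes, against 350.1 and 392 CPM in matched nuclei, which gives 19.6-fold over both (18.1 to 21.3). Within the libraries the ratio was 22.5 (19.6 to 25.9) in sham and 18.1 (16.4 to 20.1) in nephrectomy.

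Ect2, which activates RhoA for cytokinesis, had 38 UMIs in the sham and 68 in the nephrectomy nuclei and 2 in the matched nuclei. Tpx2, a spindle assembly factor that activates Aurora A, had 35 and 52 UMIs against 0, at least 134-fold higher. Hmmr, which binds spindle microtubules, and Ndc80, the kinetochore's microtubule hook, were also at 0 in the matched nuclei, with 58 and 56 UMIs (at least 89.0-fold and 85.9-fold). Genes that resting nuclei also express stood lower in ratio. Smc4, a condensin subunit, had 158 UMIs against 81 (8.98-fold), Cit, the citron kinase of the midbody, 143 against 84 (7.84-fold), and Ckap5, a microtubule polymerase, 122 against 158 (3.55-fold). The kinases and cyclins best known from textbooks had few UMIs in these nuclei: 26 of Cdk1, 20 of Ccnb2, 13 of Ccnb1, with 0 of these in sham, and 5 of Plk1.

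The balance of the 2 lists varied between nuclei. Of the nuclei with 5 or more genes, 10 of 12 in sham and 9 of 14 in nephrectomy held more UMIs of mitosis than of S phase genes. The mitosis list is the longer one (77 against 51 genes), and the nuclei were chosen largely by genes of that phase. These counts therefore do not give the phase of a nucleus. The S phase list ran from 2.47 to 95.1 UMIs per 10000 in sham (median 33.0) and from 7.39 to 87.2 in nephrectomy (median 57.8). The mitosis list ran from 9.44 to 262 in sham (median 88.2) and from 24.4 to 178 in nephrectomy (median 49.5). The ranges overlap over most of their length.

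At one end stood the sham endothelial-like nucleus, with 4 S phase and 127 mitosis UMIs in a total of 4843, and a sham proximal tubule-like nucleus with 2 and 120 UMIs in 8093. Both were rich in Cenpf, Cenpe or Aspm and poor in Kif15, with 16, 11, 2 and 2 UMIs in the first and 6, 7, 10 and 0 in the second. At the other end, a sham proximal tubule-like nucleus held 199 S phase and 113 mitosis UMIs, and a nephrectomy one 191 and 67. These 4 nuclei were picked after their values were seen. In the sham nucleus with 199 S phase UMIs, 39 of the 51 S phase genes were detected. The fewest UMIs of both lists together were those of a sham proximal tubule-like nucleus, with 5 S phase and 10 mitosis UMIs in 10597, and of a nephrectomy one of cluster 0, with 7 and 14 in 5304. Their mitochondrial shares were 4.25% and 6.92%. Per 10000 UMIs, 2 nephrectomy proximal tubule-like nuclei stood about as low as the nucleus of cluster 0, at 12.2 S phase and 26 mitosis UMIs in one and 7.39 and 31.7 in the other.

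**Figure D3:**
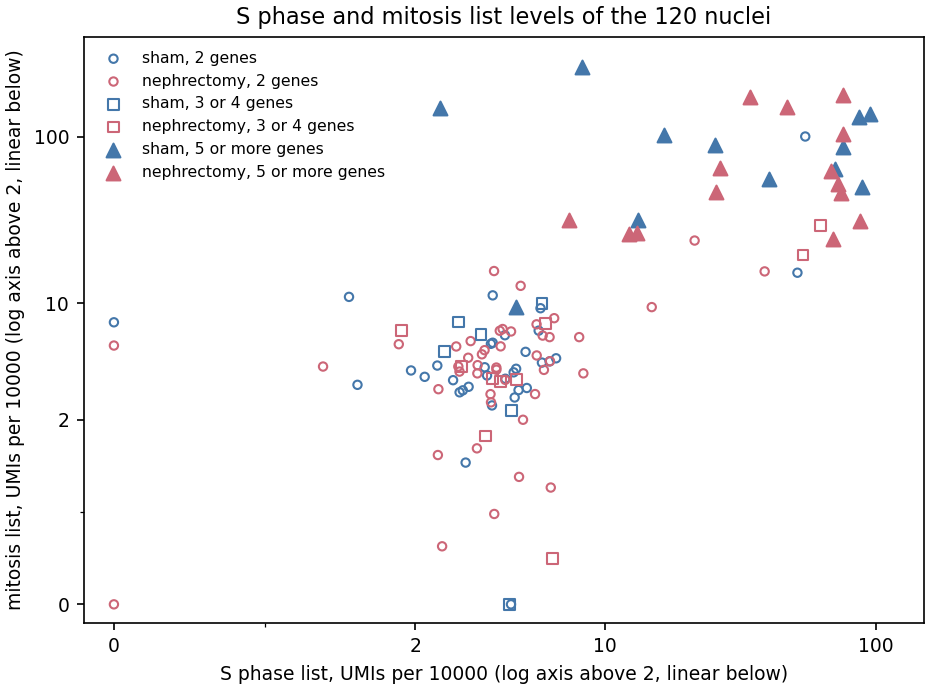
S phase list level (horizontal axis) against mitosis list level (vertical axis) of each of the 120 nuclei, in UMIs per 10000 on axes that are linear below 2 and logarithmic above, with symbols for library and for the number of rule genes. Of the filled triangles, the 26 nuclei with 5 or more genes, nearly all lie above and to the right of the bulk of open circles with 2 genes, and the lowest triangle, at 9.44 on the vertical axis, lies among them.

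Chromatin and tubulin genes moved with the cycle lists. Of 9 measured genes, 6 were at least 2-fold higher and 0 lower (8.79% and 2.78% of all measured genes). The list was 3.39 times the matched level (3.01 to 3.82). Stmn1, which frees tubulin dimers, had 34 UMIs in the sham and 43 in the nephrectomy nuclei against 18 in the matched nuclei (19.7-fold). Hmgb2, a chromatin protein of dividing cells, was 8.85-fold and Tubb5, a beta-tubulin, 6.62-fold higher, while Hmgb1, present in 91 of the 130 matched nuclei, was 1.76-fold higher (1.36 to 2.26).

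In the list of G1 cyclins, cell cycle inhibitors and p53 targets, 4 of 14 measured genes were at least 2-fold higher and 0 lower (8.79% and 2.78% of all measured genes). They were Ccne2, the cyclin of S phase entry (22.4-fold), Cdkn2c, the CDK4 inhibitor p18 (11.2-fold), Rbl1, the pocket protein p107 (4.73-fold), and E2f3 (4.36-fold). The 10 others lay within 2-fold, among them Ccnd1 at 1.26 times the matched level (0.736 to 2.06), Ccnd3 at 0.519 (0.363 to 0.724) and Cdk6 at 0.539 (0.345 to 0.811). Cdkn1a, the p53-induced inhibitor p21, had 1 UMI in the 26 nuclei and 3 in the 130 matched nuclei, which is too few for a ratio. The 78 2-gene nuclei had Ccnd3 and Cdk6 at 1.14 and 1.08 times their matched level.

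The nuclei with 5 or more genes carried less RNA of their own cell type than their matched nuclei. Of the 22 in named classes, 19 (86.4%) lay below the median of their 5 matched nuclei in the summed markers of their class, 10 lay below all 5, and 1 above all 5. The median ratio to the matched median was 0.546 (range 0.202 to 2.24), while their cycle lists were above all 5 matched nuclei in 22 of 22. The share below the median was also 86.4% with UMIs of cycle genes left out of each total, and 77.3% with matching inside the cluster in place of the class. The mean mitochondrial share of the 26 nuclei was 1.46% in sham and 1.17% in nephrectomy, against 1.43% and 0.95% in their matched nuclei, and its part in the marker levels was not tested.

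In the proximal tubule-like class 11 of 12 lay below the median and 6 below all 5. The sham nuclei stood at 0.272 to 0.772 of the matched median (median 0.514) and the nephrectomy nuclei at 0.633 to 1.01 (median 0.729). Those of the connecting tubule had 177, 330 and 223 UMIs of their markers per 10000 against medians of 876, 1160 and 272 in their matched nuclei. Only the nucleus at 330 lay below all 5 matched nuclei. Most of each sum was Slc8a1, at 146, 313 and 168 against medians of 846, 1056 and 260. S100g was higher in the nucleus at 177 (27.6 against 7.79) and Trpv5 in that at 330 (5.02 against 1.82). In that at 223, Calb1 (41.6 against 20.5) and Trpv5 (5.95 against 2.93) were higher. The other markers of this list were below their matched medians in each nucleus. The endothelial-like nucleus had 49.6 against 103, and the principal cell-like nucleus 14.0 against 29.1. Against this pattern, the thick ascending limb-like nucleus had 184 against 132, and the fibroblast-like nucleus 35.4 against 15.8.

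**Figure D4:**
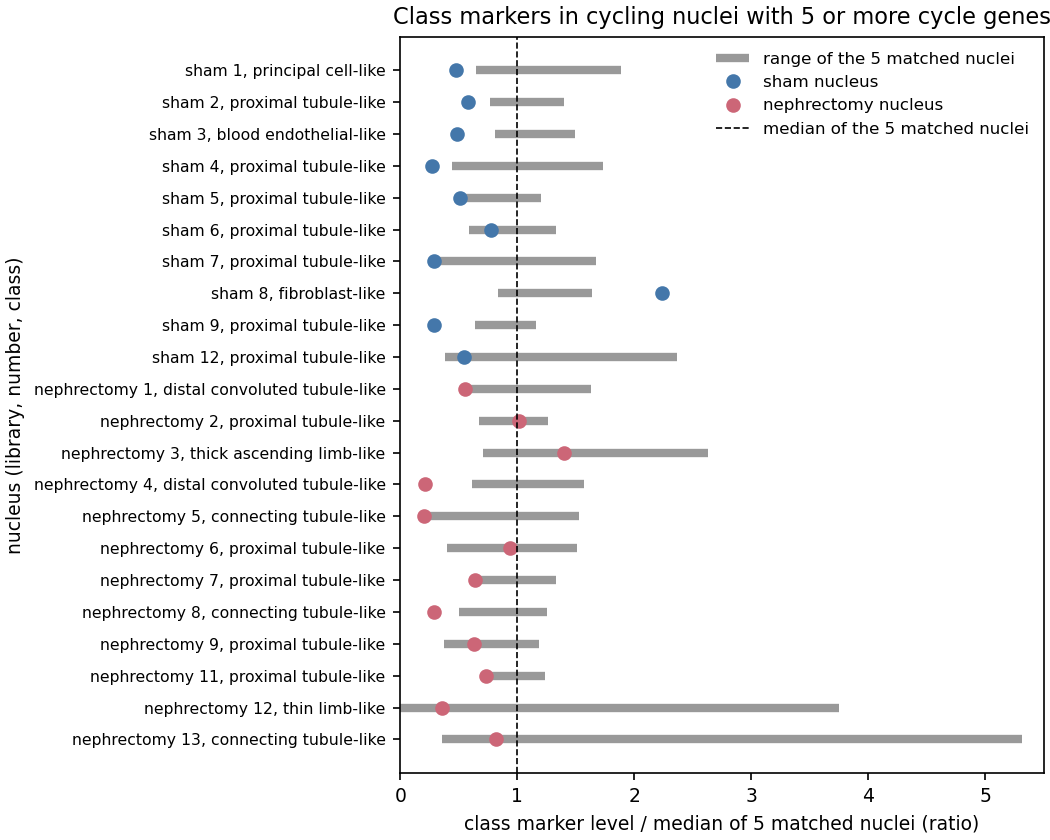
Summed class markers of each of the 22 nuclei with 5 or more cycle genes in a named class, divided by the median of its 5 matched nuclei (horizontal axis, ratio; dashed line at 1), with the range of the 5 matched nuclei in grey. Of the points, 19 lie left of the line and 10 below the lower end of the grey bar, some of them only just, and the fibroblast-like nucleus lies to the right of its bar.

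In the 12 proximal tubule-like nuclei with 5 or more genes, the segment markers depended on how the matched nuclei were drawn. These were drawn from the whole class, although the chosen nuclei sat in particular clusters of it. The 7 sham ones came 3 each from clusters 9 and 4 and 1 from cluster 1, which held 279, 206 and 238 sham and 5, 186 and 290 nephrectomy nuclei. The 5 nephrectomy ones came 3 from cluster 6, which held 55 sham and 321 nephrectomy nuclei, and 1 each from clusters 1 and 3. Segment, cluster and library therefore cannot be told apart in the values matched by class.

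By class, markers of the first segment (S1) were at 0.136 of the matched level in sham (0.101 to 0.179) and 0.501 in nephrectomy (0.443 to 0.566). With the matched nuclei drawn from the same cluster, an alternative chosen after seeing the data, they were at 0.460 (0.339 to 0.614) and 0.537 (0.474 to 0.607). S2 markers were at 0.505 (0.337 to 0.731) and 1.33 (1.03 to 1.70) by class, and at 0.571 (0.380 to 0.830) and 0.843 (0.659 to 1.07) by cluster. Markers of the last segment (S3) were at 0.886 (0.753 to 1.04) and 0.306 (0.216 to 0.421) by class, and at 0.483 (0.412 to 0.563) and 0.934 (0.649 to 1.32) by cluster. The summed S1 markers thus stood below the matched level in both libraries either way, while the order of the libraries in S3 markers turned. Slc5a12 is 1 of the S1 markers, of the 8 general markers and of the function list below. It made up 184 of the 287 S1 UMIs in nephrectomy and 14 of the 51 in sham. In the nuclei matched by cluster it made up 1887 of 2620 and 295 of 555. Of the 184 UMIs, 91 lay in 1 nucleus. The 8 general proximal tubule markers, matched by cluster, were at 0.667 in sham (0.612 to 0.726) and 0.770 in nephrectomy (0.727 to 0.815).

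Of the genes of proximal tubule function, 4 of 31 measured were at least 2-fold lower and 0 higher in all 26 nuclei (2.78% and 8.79% of all measured genes). The list stood at 0.852 of the matched level (0.831 to 0.873). The 4 were Slc5a12, a lactate transporter of the early segments (71 UMIs in sham and 271 in nephrectomy nuclei against 4393 in matched ones, 0.358), Slc5a2, the glucose transporter SGLT2 (0.364), Slc7a7, a basolateral amino acid transporter (0.496), and G6pc, glucose-6-phosphatase (0.497). In the 12 proximal tubule-like nuclei, matched inside the cluster, the 4 genes stood at 0.449 (0.386 to 0.520), 0.471 (0.252 to 0.817), 0.423 (0.281 to 0.615) and 0.422 (0.319 to 0.550). Slc5a2 rested on 14 UMIs there, and on 5 in sham, where it was at 0.569 (0.176 to 1.43). These 12 nuclei are among the 26 by which the 4 genes were picked, so their values are no separate support. Lrp2, the endocytic receptor megalin, was at 1.04 (0.935 to 1.16), while its partner Cubn was at 0.587 (0.478 to 0.715). The peroxisomal enzyme gene Ehhadh was at 1.54 (1.24 to 1.91). In the 78 2-gene nuclei, Slc5a12 and Slc5a2 were at 1.16 and 1.01 times their matched level.

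Genes of the thick ascending limb and distal tubule stood at 0.336 of the matched level (0.324 to 0.349). Of 11 measured genes, 3 were at least 2-fold lower and 0 higher (2.78% and 8.79% of all measured genes). Among these, Slc8a1, the sodium-calcium exchanger of the connecting tubule, was at 0.192, and Calb1, which binds calcium there, at 0.215. The Slc8a1 counts, 1200 against 28803 UMIs, make up most of this list. In proximal tubule-like nuclei alone the list was not lower but at 1.27 (1.08 to 1.50).

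The tubular injury list was at 1.13 times the matched level (1.03 to 1.24) in the 26 nuclei. Of 7 measured genes, 1 was at least 2-fold higher and 1 lower (8.79% and 2.78% of all measured genes). Prom1, a stem cell-associated membrane protein, was higher, with 67 UMIs against 154 in 5 times as many nuclei (interval of the ratio 1.48 to 2.69). Krt7, a keratin, was at 0.485. The markers of injured proximal tubule, summed over the 12 proximal tubule-like nuclei, were at 1.40 (1.07 to 1.80), at 1.43 in sham (1.06 to 1.90) and 1.29 in nephrectomy (0.679 to 2.31), and matched inside the cluster at 1.30 over both (0.995 to 1.67). Spp1, osteopontin, was at 1.02 (0.840 to 1.22). Havcr1, the injury marker KIM-1, had 1 UMI in the 26 nuclei and 2 in the matched ones, and Vcam1 had 0 and 4. Havcr1 and Vcam1 had too few UMIs to compare the groups. They gave at most 1 of the 77 UMIs behind the summed markers of injured proximal tubule. The split of that sum over its other markers is not given here. Of the immediate early genes, 1 had enough UMIs, the phosphatase gene Dusp1, at 1.24 (0.727 to 2.03).

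Outside the lists, the genes of highest lower bound in the nuclei with 5 or more genes were led by a DNA repair gene. Neil3, a DNA glycosylase, had 126 UMIs in 15 nuclei and 0 in the matched ones, at least 193-fold higher against the floor of 3 counts (155-fold at the lower end of the exact interval). Cenpp, a centromere protein, had 301 UMIs in 21 nuclei against 33 (42.0-fold, 29.3 to 62.1). Lockd, a long noncoding RNA next to Cdkn1b, had 166 UMIs in 19 nuclei against 7 (109-fold, 51.8 to 276). Others of the 15 so chosen were Efcab11, Bard1, Parpbp, Fanci, Esco2, Ankle1, Asf1b, Cenpm, Kntc1, Fignl1 and Rtkn2. They lay at 20 to 76 UMIs against at most 2, and 11 of the 20 UMIs of Rtkn2 came from 1 nucleus.

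Among the 15 genes with the lowest upper bound, several reflect single matched nuclei or classes. Nrxn3 had 0 UMIs against 154, of which 132 lay in 1 matched nucleus, and Mgat4c 6 against 217, mostly in principal cell-like nuclei. More evenly spread over the matched nuclei were Usp20, a deubiquitinase (5 against 122 UMIs, found in 62 matched nuclei, 0.189), Slc43a2, an amino acid transporter (36 against 508, 0.326), Tnfaip8 (188 against 2187, 0.396), and Nox4, the NADPH oxidase of the tubule (214 against 2348, 0.420, 0.363 to 0.483). Among the chosen nuclei, 1 nucleus held 74 of the 188 UMIs of Tnfaip8, and 1 held 12 of the 36 of Slc43a2. Tnfaip8 was at 0.579 in sham and 0.282 in nephrectomy. Nox4 was at 0.289 in sham and 0.539 in nephrectomy, and with matching inside the cluster its log2 ratio went from -1.25 to -0.95, so that it no longer reached 2-fold. Others were Ebf1, Malrd1, Rtl4, Col8a1, Slc16a7, Robo2, Cyp24a1 and Pde1a.

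The 78 nuclei with exactly 2 genes differed little from their 390 matched nuclei. Of 11312 genes, 108 (0.955%) were higher and 128 (1.13%) lower. S phase genes summed to 460.5 against 381 CPM (1.21, 1.11 to 1.31) and mitosis genes to 459 against 401 CPM (1.14, 1.06 to 1.24), and 0 of 18 and 0 of 13 measured genes reached 2-fold. Their class markers were below the matched median in 31 of 64 nuclei, at a median ratio of 1.01, and their cycle lists exceeded all 5 matched nuclei in 17 of 64. In the 16 nuclei with 3 or 4 genes, S phase genes were at 1.74 (1.49 to 2.02) and mitosis genes at 1.55 (1.32 to 1.83) times the matched level. There 127 of 5938 genes (2.14%) were higher and 119 (2%) lower.

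Over all 120 nuclei and 600 matched ones the 2 kinds are mixed. Of 12382 genes, 311 (2.51%) were higher and 150 (1.21%) lower. S phase genes were at 3.09 (2.94 to 3.24), with 27 of 37 measured genes at least 2-fold higher, and mitosis genes at 3.95 (3.77 to 4.13), with 53 of 60. The 26 nuclei with 5 or more genes held 1948 of the 3024 S phase UMIs and 3040 of the 4072 mitosis UMIs of the 120. Lower genes came largely from matched nuclei of 1 class: 94.7% of the 152 matched UMIs of Rorb lay in intercalated cell-like nuclei and 95.4% of the 108 of Bank1 in cluster 17.

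Between the libraries, S phase genes were close over all chosen nuclei, while mitosis genes summed lower in nephrectomy. The 2-gene nuclei did not share this, with mitosis genes at 463 CPM in nephrectomy and 451 in sham. With 3 or 4 genes they stood at 522 and 774 CPM, and with 5 or more at 7108 and 7863. With at least 3 of the genes, mitosis genes stood at 3873 CPM in nephrectomy and 5105 in sham, and S phase genes at 2787 and 3085. Nuclei with 5 or more genes were 14 of these 24 in nephrectomy and 12 of these 18 in sham. The part of this make-up in the difference was not tested. Among all chosen nuclei S phase genes were at 1188 CPM in nephrectomy and 1167 in sham (1.02, 0.944 to 1.10) and mitosis genes at 1529 and 1703 (0.898, 0.842 to 0.957). Of 11331 genes, 646 (5.7%) were higher and 757 (6.68%) lower in nephrectomy, and between the matched nuclei of the libraries 615 (4.38%) and 570 (4.06%) of 14051. Among the genes that led the difference, Pdk4, which restrains pyruvate oxidation, had 241 UMIs in 39 nephrectomy nuclei and 15 in 11 sham nuclei (8.54-fold, 5.07 to 15.5), and 5.83-fold in the matched nuclei. Abcc4, an efflux pump, was 5.71-fold higher (3.52 in the matched nuclei), and Cyp4a14, a fatty acid hydroxylase, 5.29-fold (6.02).

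On the other side, Slc7a13, an amino acid transporter of S3, had 107 UMIs in nephrectomy and 524 in sham (0.108, and 0.167 in the matched nuclei), and Ldc1 was at 0.0671 (0.130). These differences were also present in nuclei with none of the cycle genes, and Cyp4a14 was among the leading genes of cluster 6 and Slc7a13, Ldc1 and Pzp among those of cluster 9, which held 55 sham and 321 nephrectomy and 279 sham and 5 nephrectomy nuclei. Cyp7b1, an oxysterol hydroxylase, had 92 UMIs in 15 nephrectomy and 354 in 19 sham nuclei (0.138, 0.109 to 0.174), with 83 of the 354 in 1 nucleus, while the matched nuclei were at 1.15 (1.05 to 1.25). It was among the leading genes of cluster 4, which held 206 sham and 186 nephrectomy nuclei but gave 11 of the chosen nuclei in sham and 2 in nephrectomy. In cluster 4 the chosen nuclei held 306 UMIs of Cyp7b1 in sham (1321 CPM) and 18 in nephrectomy (681 CPM), and the chosen nuclei of all other clusters 48 (73.0 CPM) and 74 (44.9 CPM). The matched nuclei of cluster 4 were at 1589 CPM in sham and 1724 CPM in nephrectomy, and the part of the clusters in the difference was not tested. Pappa, an IGF-binding protein protease, had 91 UMIs in 23 nephrectomy nuclei and 4 in 3 sham nuclei (12.1-fold, and 3.53 in the matched nuclei). Several of the other named genes rested on 1 nucleus, among them Rtl4 (123 of 200 UMIs), Tshr (41 of 71), Galnt13 (33 of 41) and Hs6st3 (39 of 62) on the nephrectomy side and Adamtsl3 (30 of 30), Slc26a7 (30 of 30) and Dpp6 (31 of 35) on the sham side.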

How the data were processed

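The authors deposited 1 UMI count matrix per library, made with Cell Ranger (7.0.1 per the file headers, 7.1.0 per the submitters' processing notes) against mm10. The counts are whole numbers, not normalized, over 32285 genes. The members, gene lists, markers and comparisons were chosen with earlier results of these data known.

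Nuclei were clustered with scanpy 1.11.5 and leidenalg 0.10.2 (2000 variable genes, 30 components, 15 neighbours, resolution 1) without 150 cycle genes. A class needed at least 3 of its markers raised 2-fold in at least 5% of nuclei, and the naming rules were revised after the data were seen. Matched nuclei (5 per member, the same library and class, nearest in UMIs, 0 of the 10 genes) were compared by ratios of summed CPM, called at 2-fold among genes with at least 20 UMIs, with exact binomial intervals. Shares have exact Clopper-Pearson intervals and differences of shares Newcombe intervals, and the limit for a count of 0 is 3 counts. Sums have 1 library per group, so nothing was tested.

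The named genes are the 10 rule genes, list members and markers, and the 15 genes outside the lists of highest lower bound and 15 of lowest upper bound (10 and 10 between libraries), without predicted, ribosomal and mitochondrial genes. The comparison was run on simulated counts that had no spread between nuclei, so it does not cover genes that rest on 1 nucleus. At the depth of the nuclei with 5 or more genes, 50% of genes set 2-fold higher and 54% set 2-fold lower were called. At 4-fold 100% were called in either direction, and 1.14% of unchanged genes. Alternatives included thinning, other gene minimums, 1 match, TMM factors (edgeR 4.0.16) and equal weights. Promoters came from RefSeq. A few genes that these rules name are not reported here.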

Additional observations from a re-analysis of the deposited data

Results flagged for a closer look

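Among nuclei with 2 or more cycle genes, gene lists differed in direction between the libraries in 2 cases. The tubular injury list was at 1.08 times the level of matched nuclei in sham (1.01 to 1.15) and at 0.940 in nephrectomy. The proximal tubule function list was at 0.977 in sham (0.963 to 0.992) and at 1.11 in nephrectomy (1.09 to 1.12). With 1 library per group, the difference was not tested in either case.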

How the results depend on the processing

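The libraries differ in depth, each group is 1 library, and most of the 120 nuclei rest on 2 UMIs, so shares and ratios move with the gene minimum. No paired analysis was possible because each group holds 1 library. A difference of shares counts as reversed when its sign turned. A list ratio needed in addition a reported interval that left out a ratio of 1, and a gene ratio a reported value of at least 2-fold. Any other recomputed value counts as moved when it left the 95% counting interval of the reported value, and a count when it changed by over 1.5 times. Of 153 recomputed values of the comparisons, 98 stayed within this margin, 53 moved and 2 reversed, and of 705 values of lists and genes 557, 137 and 11. The causes were not tested. The proximal tubule-like part of the nuclei (50% to 58.3% in sham, 35.7% to 50% in nephrectomy) and the share with class markers below their matches (77.3% to 91.7%) stayed within it throughout. The alternatives of at least 5 and of exactly 2 genes, and all those run on nuclei with 5 or more genes, were chosen after seeing the data.

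The sham share of 1.92% became 0.678%, 0.565% and 0.452% with at least 3, 4 and 5 genes, and 0.377% and 0.938% after thinning to 1000 and 3000 UMIs. The nephrectomy share of 2.37% became 0.825%, 0.585% and 0.481%, 1.65% without Diaph3 and Anln in the rule, and 0.206% and 0.719% after thinning. The difference of 0.452 points reversed to -0.170 and -0.219 after thinning.

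For all 120 nuclei, the 311 higher genes became 490 with 1 match, 171 in the proximal tubule-like class, 480, 601 and 108 for at least 3, at least 5 and exactly 2 genes, 494 with equal weights and 2152 with no minimum count. The 150 lower genes became 41 in the proximal tubule-like class, 294 with equal weights and 813 with no minimum. The log2 ratio of the S phase list, 1.63, became 1.79 without the highest doublet scores, 1.54 in the proximal tubule-like class, 2.91, 3.64 and 0.27 for at least 3, at least 5 and exactly 2 genes, and 2.01 with equal weights. That of the mitosis list, 1.98, became 2.18, 1.66, 3.48, 4.29, 0.20 and 2.51 in the same order. The chromatin list went from 0.48 to -0.16 for exactly 2 genes, Dgkb from -1.36 to 0.18 for at least 3, and the proximal tubule function list from 0.07 to -0.017 with 1 match, -0.23 for at least 5 genes and -0.016 with equal weights. The thick ascending limb and distal list went from -1.16 to 0.10 in the proximal tubule-like class.

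For 5 or more genes, the 601 higher genes became 350 in the proximal tubule-like class, 340 in sham alone and 2867 with no minimum. The 190 lower genes became 395 with 1 match, 368 with equal weights, 319 with TMM and 1028 with no minimum. The S phase log2 ratio of 3.64 became 3.49 with TMM, and the mitosis ratio of 4.29 became 4.08 in the proximal tubule-like class, 4.49 in sham alone, 4.47 with equal weights and 4.15 with TMM. The thick ascending limb and distal list went from -1.57 to 0.35 in the proximal tubule-like class.

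Between the libraries, the 646 higher genes became 974 with equal weights and 1367 with no minimum, and the 757 lower ones 3241 with no minimum. The S phase log2 ratio of 0.03 became -0.15 for at least 3 genes and -0.12 without the highest doublet scores, and the mitosis ratio of -0.16 became -0.40, -0.34 and, with equal weights, -0.55. The thick ascending limb and distal list went from -0.45 to 0.73 and 1.39 for at least 3 and 5 genes, and the tubular injury list from -0.20 to 0.19 for at least 5 genes and 0.024 with equal weights.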

Other observations

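A few nuclei with fewer than 5 of the 10 genes held S phase RNA at the level of the nuclei with 5 or more, whose medians were 33.0 UMIs per 10000 in sham and 57.8 in nephrectomy, and most of them held less mitosis RNA than the medians there of 88.2 and 49.5. They were picked after their values were seen, so they are given as values only. A sham proximal tubule-like nucleus with 2 genes had 37 S phase UMIs, from 23 genes, and 11 mitosis UMIs in a total of 7209, at 51.3 and 15.3 per 10000. A nephrectomy connecting tubule-like nucleus with 3 or 4 genes had 47 S phase and 22 mitosis UMIs, at 62.5 and 29.3 per 10000, and a distal convoluted tubule-like one 58 and 21, at 53.8 and 19.5. A nephrectomy intercalated cell-like nucleus with 2 genes had 20 S phase UMIs, at 38.9 per 10000, and 15.5 mitosis UMIs per 10000. A sham nucleus of cluster 0 with 1094 UMIs reached 100.5 mitosis and 54.8 S phase UMIs per 10000.

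Nuclei with 0 of the 10 genes also carried UMIs of S phase genes, at 362 CPM in sham and 415 CPM in nephrectomy. They had a median of 2 S phase genes detected in either library, and single ones reached 21 genes in sham and 25 in nephrectomy. Depths among them ran up to 54492 and 71022 UMIs, and the part of depth in these gene numbers was not tested. Mitosis genes in these nuclei reached 13 and 14 of the 77.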
